A study of Mus musculus with 8 samples.

Results

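Open chromatin at 9 genes that mark microglia was followed through sorted mouse retinal cells given GFP, Ezh2 or the catalytically dead Ezh2-Y726D. The genes were Cx3cr1, P2ry12, Tmem119, Csf1r, Spi1, Aif1, Trem2, Tyrobp and Itgam, and the regions were every stretch of called peaks that overlapped a gene or the 20 kb on either side of it in GRCm38. These windows held 92 of the 189914 regions obtained by merging overlapping peaks of all 8 lists. The genes were selected on values of these same lists, namely whether peaks were called near them, how many there were and how strong they were in each of the 3 groups. Counts and percentiles of the members below are therefore a description and carry no p-value. All mice were C57BL/6J adults with an optic nerve crush, and the groups differed in the adeno-associated virus serotype 2 placed in the vitreous 2 weeks before the crush: AAV2-GFP (n = 3), AAV2-Ezh2 (n = 3) or AAV2-Ezh2-Y726D (n = 2). Cells positive for CD90.2 (Thy1) were sorted 3 days after the crush, following a block of the Fc receptors CD16 and CD32, and 50000 of them went into each ATAC-seq library. AAV2 given into the vitreous reaches retinal ganglion cells (RGCs) and other retinal cells too, and the gate selects on a surface protein that T cells also carry. The labels call the sorted cells retinal ganglion cells, and nothing in them says that the replicates came from separate animals.

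Microglia are the resident macrophages of the retina and brain. They arise from yolk sac progenitors, depend on the growth factor receptor Csf1r and the transcription factor PU.1 (encoded by Spi1), and survey nerve tissue through receptors such as Cx3cr1 and P2ry12; after optic nerve injury they gather around dying RGCs. ATAC-seq reads where a transposase can enter chromatin, so a peak marks an open promoter or regulatory element, and the myeloid elements of these genes are normally closed in neurons. Ezh2 is the methyltransferase of Polycomb repressive complex 2, which places the repressive mark H3K27me3, and the Y726D form lacks that activity.

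Promoter sequences were taken from RefSeq (GRCm38.p6), whose table held 5 of the 9 genes (Cx3cr1, P2ry12, Aif1, Trem2 and Itgam). The 250 bases before the start site are shown for the 3 genes whose start region carried a peak in several lists, because these 3 starts behaved differently between the groups. All are written 5′ to 3′ on the strand of the gene, and capitals mark the PU box GAGGAA, the core that PU.1 recognises, on either strand. They lie at chr9:120068297-120068546 (minus strand), chr3:59262986-59263235 (minus strand) and chr7:128062390-128062639 (plus strand).
Cx3cr1: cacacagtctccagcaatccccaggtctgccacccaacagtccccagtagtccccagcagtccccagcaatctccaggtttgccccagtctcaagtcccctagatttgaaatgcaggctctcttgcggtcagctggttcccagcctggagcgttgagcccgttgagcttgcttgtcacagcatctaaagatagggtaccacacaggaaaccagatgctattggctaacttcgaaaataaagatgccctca
P2ry12: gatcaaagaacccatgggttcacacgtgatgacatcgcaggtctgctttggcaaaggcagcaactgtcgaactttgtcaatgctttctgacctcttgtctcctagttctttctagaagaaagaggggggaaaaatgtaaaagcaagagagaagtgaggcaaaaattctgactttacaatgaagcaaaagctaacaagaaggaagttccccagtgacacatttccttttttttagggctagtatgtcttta
Itgam: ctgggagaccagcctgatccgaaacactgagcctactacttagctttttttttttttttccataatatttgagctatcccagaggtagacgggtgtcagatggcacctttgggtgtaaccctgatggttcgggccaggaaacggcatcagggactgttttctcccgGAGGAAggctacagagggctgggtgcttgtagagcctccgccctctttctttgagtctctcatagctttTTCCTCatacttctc
The Itgam promoter held the PU box 84 bases before its start on the plus strand and again 15 bases before it on the minus strand. Those letters were not in the windows of Cx3cr1 and P2ry12. Over 27025 RefSeq promoters, 23.1% held at least 1 PU box in the same 250 bases. The Aif1 promoter held it 7 bases and the Trem2 promoter 40 bases before the start, both on the minus strand. The AP-1 letters TGANTCA (6.87% of promoters) were found in Trem2 only, 9 bases before the start, and the C/EBP letters TTGCNNAA (9.55% of promoters) in P2ry12 only, 204 bases before it. Each search covered both strands, no match overlapped another, and a match is a description of the letters, not a bound site.

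The 8 lists held 112939 to 135895 peaks with a median width of 470 to 508 bp. The number of reads behind them is unknown, so a region without a peak was below the caller's threshold and cannot be called closed. Column 7, the fold of a peak's pileup over its local background, is not scaled between libraries, and it was replaced by its percentile within its own list, from 0 for the weakest peak to 100 for the strongest. Genes of RGCs had a peak within 1 kb of a gene end in 11 or 12 of 12 cases in every library. The same count for Müller glia genes was 11 of 12 in every library.

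Member regions were open most often with Ezh2 and least often with Ezh2-Y726D. In the GFP libraries 57, 51 and 62 of the 92 regions had a peak, in the Ezh2 libraries 72, 71 and 73, and in the Ezh2-Y726D libraries 30 and 33. No library of one group overlapped another group in this count. As a share of the 92 regions this was 61.6% ± 5.99 (SD, n = 3) with GFP, 78.3% ± 1.09 (SD, n = 3) with Ezh2 and 34.2% ± 2.31 (SD, n = 2) with Ezh2-Y726D. Over all 189914 regions the shares were 61.1% ± 6.06, 65.8% ± 2.83 and 64.4% ± 1.72, and there the groups overlapped. In bulk libraries, fewer microglia among the sorted cells and less open chromatin per microglial cell cannot be told apart.

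T cell genes moved with the microglia genes. Of 12 T cell genes, 10, 10 and 12 had a gene-end peak in the GFP libraries, 12 in each Ezh2 library, and 5 and 4 in the Ezh2-Y726D libraries. Their summed gene-end percentile, counting a gene without a peak as 0, was 594 to 641 with GFP, 615 to 715 with Ezh2 and 177 to 203 with Ezh2-Y726D. Neither Ezh2-Y726D list had a peak at Cd3g, Cd2, Cd6, Cd8a, Lck, Lat or Zap70, of which Cd3g encodes a chain of the T cell receptor complex and Cd8a a coreceptor. The summed percentile of the 9 microglia genes was 227 to 389, 354 to 453 and 158 to 161 in the same order of groups. The part of the T cell genes in the result was not tested.

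**Figure D1:**
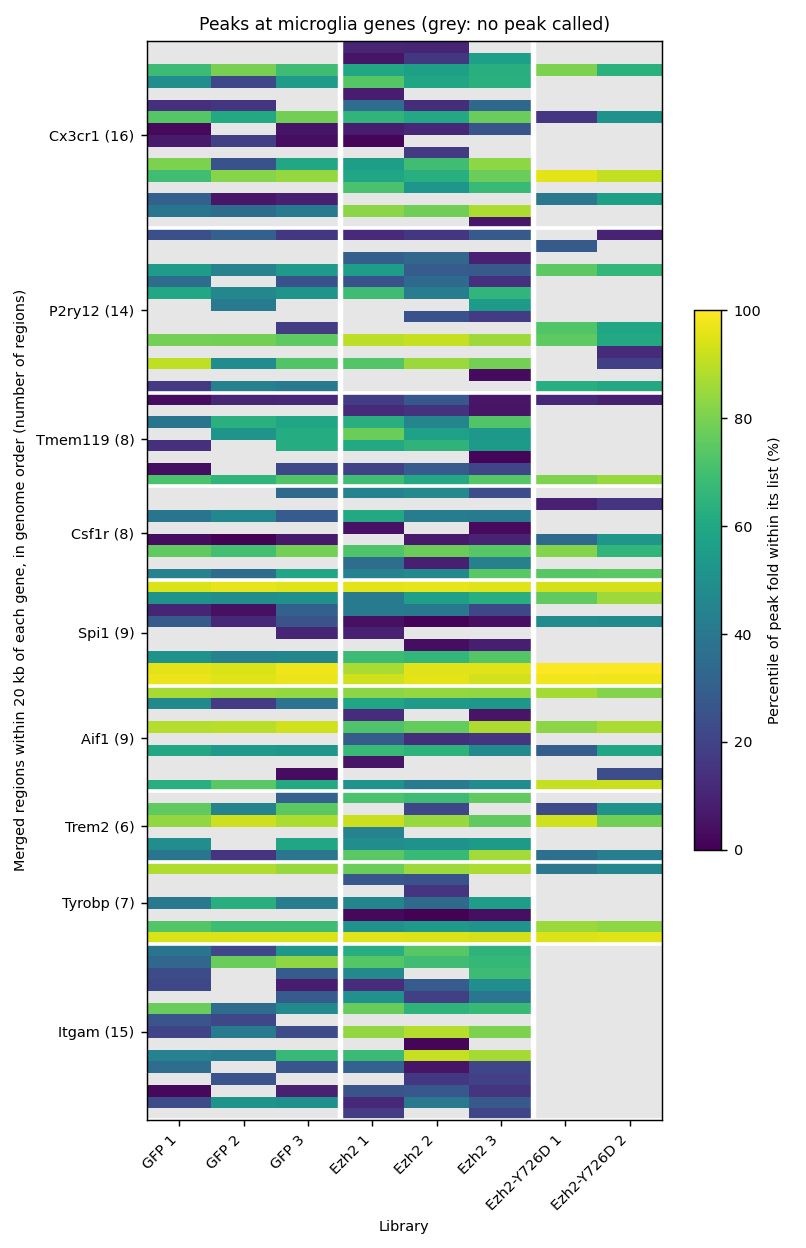
Within-list percentile of peak fold (colour, 0 to 100%) for the 92 merged regions (rows, in genome order within each gene) in the 8 libraries (columns), with grey where no peak was called. The Ezh2-Y726D columns are mostly grey, with peaks in 30 and 33 regions, and the Itgam block is grey throughout in both.

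Regions were counted as gained or lost between 2 groups where every library of one group and no library of the other had a peak. With Ezh2-Y726D, 17 of the 92 member regions (18.5%) were lost relative to GFP, against 4.72% of all regions, and they lay at every gene but Trem2. A single member region, near Csf1r, was gained (1.09%, against 4.77% of all regions). With Ezh2, 7 member regions (7.61%, against 2.72% of all regions) were gained relative to GFP and 2 (2.17%, against 1.68%) were lost. Ezh2 and Ezh2-Y726D differed most, with 36 member regions (39.1%) open in all Ezh2 and no Ezh2-Y726D lists against 8.96% of all regions, and 4 (4.35%) the other way round against 6.14%. The count of 17 was 26 without GFP replicate 2, 11 among peaks with −log10 q of at least 5 and 7 where peaks had to cover a share of at least 0.5 of a region. The share of all regions lost under those settings is not given, so these counts cannot be set against 4.72%. These contrasts chose the genes, so the member shares are set beside the background and nothing further is read from them. GFP is the control in 2 of the comparisons, and Ezh2-Y726D enters 2 of them.

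Peaks present in all 6 GFP and Ezh2 lists were examined separately, since such regions had been called reproducibly without the mutant. The windows held 41 of these, and 16 of them (39.0%) had no peak in either Ezh2-Y726D list, against 8.54% of the 80295 such regions overall. These 16 belonged to 8 of the 9 genes and were elements of middle rank: their median width was 730.5 bp, and their median percentile was 44.6 in the GFP and 66.3 in the Ezh2 lists. All 6855 such regions also had middle medians that were higher with Ezh2, at 42.4 in the GFP and 55.9 in the Ezh2 lists. The mean percentile was higher with Ezh2 than with GFP at 14 of the 16 (87.5%, against 76.7% of all 6855). At 7 of the 16 every Ezh2 library was above every GFP library (43.8%, against 36.3% of all such regions), and at 0 was every Ezh2 library below. By contrast, the 23 regions (25.0%, against 11.1% of all regions) found in Ezh2 lists alone were narrow and weak, with a median width of 304 bp and a median percentile of 10.7.

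**Figure D2:**
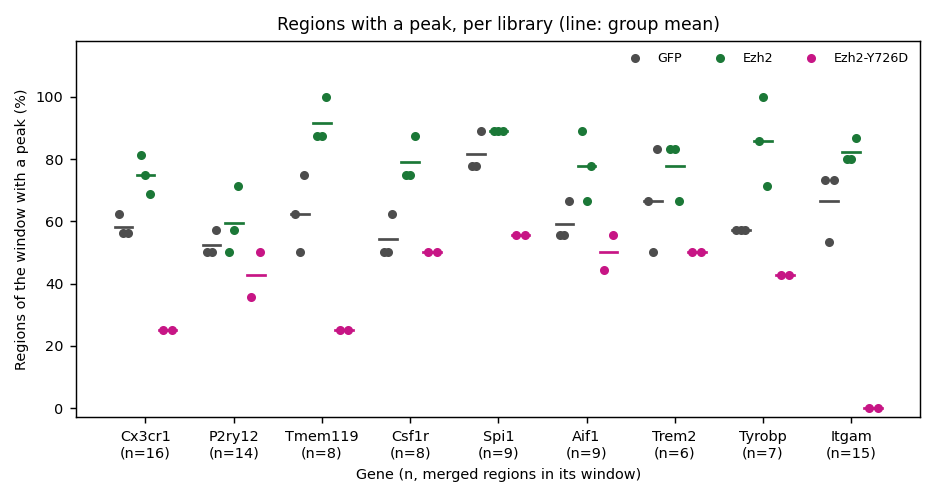
Percent of the merged regions in each gene's window that had a peak, with 1 point per library, a line at the group mean and n the number of regions. The Ezh2-Y726D points of Itgam sit at 0 and those of Cx3cr1 and Tmem119 at 25.0%, while the Spi1 points of GFP and Ezh2 lie at 77.8% or above.

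Itgam, which encodes CD11b, an integrin alpha chain that myeloid cells use in adhesion and complement uptake, gave the plainest pattern (chromosome 7, 128062640 to 128118491, plus strand). Its window had 12, 10 and 12 peaks in the GFP lists, 12, 13 and 14 in the Ezh2 lists, and 0 in both Ezh2-Y726D lists. Each of the 15 merged regions was thus without a mutant peak. Of 9749 protein-coding genes with at least 5 window peaks in every GFP list, 2 (0.0205%) had no Ezh2-Y726D peak in the window, namely Itgam and its neighbour Itgax, whose windows overlap. The minimum of 5 peaks was set after the values were seen.

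Within Itgam, the region on the start site (128062481 to 128062863) had GFP percentiles of 22.7 in replicate 1 and 29.0 in replicate 3, and Ezh2 percentiles of 47.0 in replicate 1 and 68.7 in replicate 3, with no peak in the replicate 2 library of either group. It overlaps the end of the Itgam sequence printed above, nearest the start. An intragenic region (128105131 to 128105854) was at 20.0, 41.4 and 23.4 with GFP and at 83.7, 88.7 and 80.2 with Ezh2. Just beyond the far end of the gene, the region at 128119544 to 128120429 was at 44.3, 41.4 and 67.1 with GFP and at 68.1, 91.3 and 86.6 with Ezh2. At both elements the Ezh2 and GFP libraries did not overlap. Not every Itgam region followed this order: the element at 128050600 to 128051362, before the start, had GFP percentiles of 33.0, 77.1 and 83.5 and Ezh2 percentiles of 73.7, 69.2 and 66.6, which overlapped. The same held inside the gene at 128089155 to 128089693, with 77.1, 35.3 and 48.0 with GFP and 76.6, 65.2 and 67.2 with Ezh2.

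Cx3cr1, the receptor for the neuronal chemokine fractalkine, kept some elements and not others (chromosome 9, 120048683 to 120068296, minus strand). Of its 16 regions, 10, 9 and 9 had a peak with GFP, 13, 12 and 11 with Ezh2, and 4 in each Ezh2-Y726D list. The region on its start site (120068048 to 120068617) was at percentiles 80.1, 25.2 and 59.5 with GFP and 56.0, 69.3 and 83.1 with Ezh2, with no Ezh2-Y726D peak. GFP and Ezh2 overlapped there, and GFP replicate 2 was the lowest library.

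Elements outside Cx3cr1 divided into contrasting kinds. At 120082457 to 120083453, before the start, GFP was at 38.9, 35.3 and 41.8, Ezh2 at 82.5, 78.2 and 87.5, and Ezh2-Y726D had no peak. At 120074371 to 120074910, nearer the start, only the Ezh2 lists had a peak, at 71.2, 52.5 and 67.9. The order was the opposite at 120072943 to 120073670, where Ezh2-Y726D was highest, at 95.8 and 91.0, GFP lay at 69.2, 81.8 and 84.1, and Ezh2 at 58.9, 63.1 and 77.3. A further region, at 120077798 to 120078449, had no Ezh2 peak, with 30.7, 6.2 and 8.8 with GFP and 40.0 and 56.8 in the mutant. Beyond the far end of the gene, a region shared by all 8 lists lay at 120037233 to 120038491, at 68.6, 79.6 and 68.8 with GFP, 60.1, 57.0 and 63.1 with Ezh2, and 80.3 and 63.9 in the mutant. The Ezh2 libraries were the lowest there, while GFP and the mutant overlapped. In the mutant lists Cx3cr1 was thus without a peak at its start site and at most of the elements around it, and kept peaks at 4.

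P2ry12, the ADP receptor that directs microglial processes to injury, had a number of mutant peaks close to that of GFP (chromosome 3, 59216271 to 59262985, minus strand). Of 14 regions, 7, 7 and 8 had a peak with GFP, 7, 8 and 10 with Ezh2, and 5 and 7 in the mutant. Its start region (59262690 to 59263078) reversed the order seen at Cx3cr1: GFP was at 17.1, 43.8 and 40.9, Ezh2-Y726D at 63.2 and 60.3, and no Ezh2 list had a peak. Next to it, at 59260566 to 59261224 inside the gene, GFP was at 90.6, 48.5 and 72.8, Ezh2 at 73.2, 84.9 and 79.0, and Ezh2-Y726D had a peak in replicate 2 alone, at 19.1. The strongest P2ry12 element, at 59254550 to 59255247, was present in all 8 lists, with GFP at 79.1, 78.6 and 75.1, Ezh2 at 90.2, 91.1 and 85.5, and Ezh2-Y726D at 75.0 and 60.8, and there all 3 groups stood apart, the mutant narrowly so from GFP. Another intragenic element (59228641 to 59229711) had no mutant peak and overlapping values of 60.1, 46.7 and 51.9 with GFP and 68.8, 42.4 and 65.7 with Ezh2. By contrast, the element at 59250494 to 59250834 was at 73.0 and 58.7 in the mutant. It was at 17.8 in GFP replicate 3 alone and had no Ezh2 peak. All of P2ry12 lies within Med12l, a gene of the Mediator complex, so its intragenic peaks cannot be assigned to either gene by position.

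**Figure D3:**
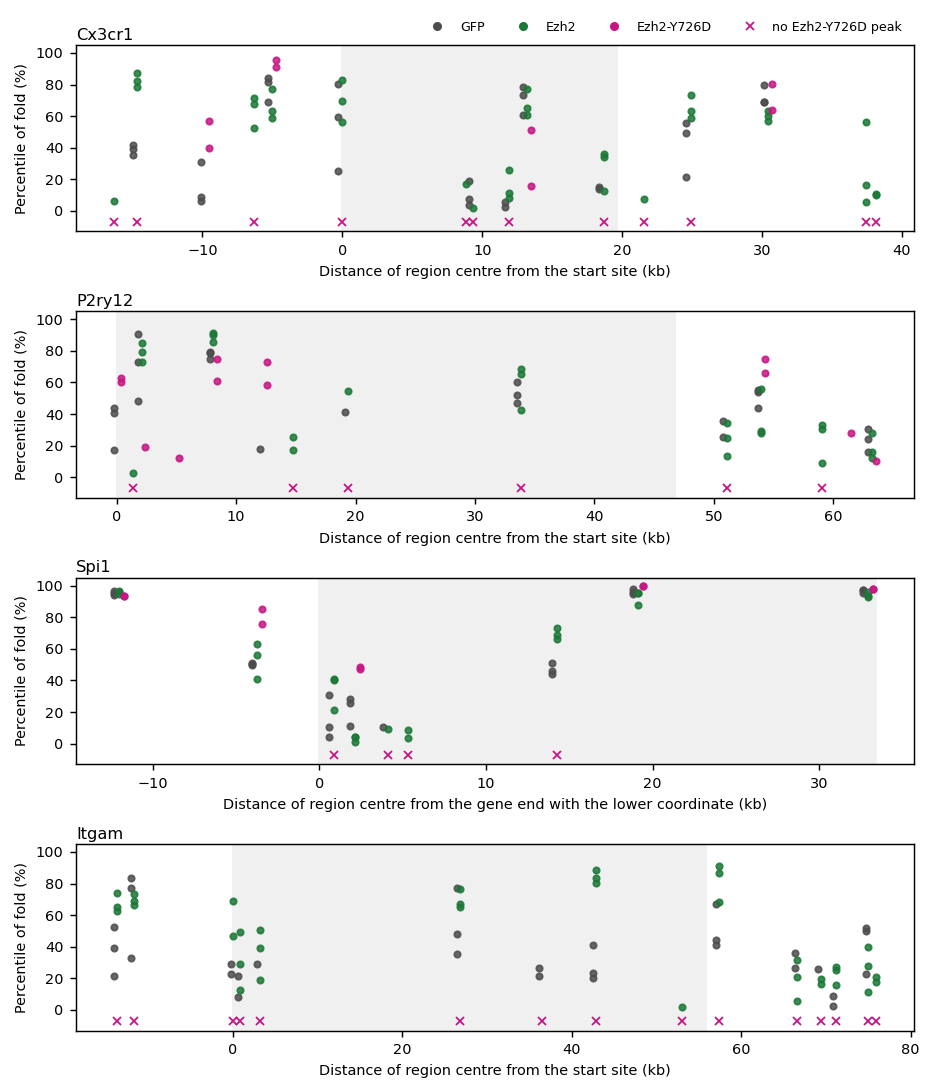
Percentile of peak fold against distance of the region's centre from the start site (for Spi1, from the gene end with the lower coordinate), in kb along the direction of transcription where the strand was known, for Cx3cr1, P2ry12, Spi1 and Itgam. Each point is a library, groups are shifted sideways by 0.3 kb, grey marks the gene, and a cross marks a region without an Ezh2-Y726D peak; every region of Itgam carries a cross, whereas the strong regions of Spi1 do not.

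Tmem119, a surface protein used to tell microglia from blood macrophages, showed a large contrast on few regions (chromosome 5, 113793729 to 113800396). Of its 8 regions, 5, 4 and 6 had a peak with GFP, 7, 7 and 8 with Ezh2, and 2 in each Ezh2-Y726D list. The gene-end region (113800042 to 113800764) was at 13.8 in GFP replicate 1 and 61.8 in replicate 3, had no peak in replicate 2, stood at 60.9, 65.2 and 54.5 with Ezh2, and had no mutant peak. At 113783596 to 113784183, GFP was at 38.9, 63.5 and 58.7 and Ezh2 at 62.6, 45.5 and 72.8, again with no mutant peak. Both regions that the mutant lists did share lay at the edges of the window, more than 15 kb from the gene. The stronger of them, at 113815566 to 113816333, was at 71.8, 65.5 and 72.8 with GFP, 69.2, 60.5 and 73.8 with Ezh2, and 80.7 and 84.4 in the mutant, which was above all other libraries.

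Csf1r, the receptor for the survival factors CSF1 and IL-34, kept its strongest element in all groups (chromosome 18, 61105572 to 61131139). Of its 8 regions, 4, 4 and 5 had a peak with GFP, 6, 6 and 7 with Ezh2, and 4 in each Ezh2-Y726D list. The strongest, inside the gene at 61107694 to 61109124, was at 75.5, 70.2 and 78.9 with GFP, 72.7, 77.6 and 74.0 with Ezh2, and 81.4 and 65.9 in the mutant. Those ranges overlapped in all 3 groups. GFP and Ezh2 also overlapped at 61098955 to 61099307 outside the gene, which was at 38.9, 46.7 and 29.0 with GFP and 60.9, 42.4 and 41.5 with Ezh2 and had no mutant peak. The region at one end of the gene that it shares with the end of Hmgxb3 (61131346 to 61132307) was found in the Ezh2 lists alone, at 35.9, 8.7 and 43.7. Its other gene-end region, 61105624 to 61105968, was weak and found in 2 Ezh2 lists, at 5.1 and 2.6. The mutant lists also carried a region of their own at 61095809 to 61096299, at 9.2 and 15.1. Inside the gene at 61106655 to 61107308 the mutant was highest, at 34.2 and 52.9. GFP lay there at 3.3, 0.4 and 6.9, and Ezh2 at 6.8 in replicate 2 and 9.7 in replicate 3.

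Spi1 encodes PU.1, the transcription factor that opens myeloid enhancers, and was the member with the strongest peaks (chromosome 2, 91082374 to 91115759). Of its 9 regions, 7, 7 and 8 had a peak with GFP, 8 in each Ezh2 list and 5 in each Ezh2-Y726D list. The region at the gene end with the higher coordinate (91114867 to 91115723) was at 97.0, 95.1 and 97.2 with GFP, 92.6, 96.1 and 93.2 with Ezh2, and 97.7 and 97.6 in the mutant. A further region, inside the gene at 91101102 to 91101948, was at 95.9, 94.5 and 97.6 with GFP, 87.4, 95.5 and 95.0 with Ezh2, and 99.9 and 99.8 in the mutant. Both were strongest with the mutant. In contrast, the intragenic region at 91096342 to 91096992 had no mutant peak, and its Ezh2 values of 68.6, 66.0 and 73.3 lay above the GFP values of 51.1, 44.4 and 46.1. The region at the end with the lower coordinate (91082863 to 91083599) also had none, with weak peaks of 10.5, 4.5 and 31.1 with GFP and 40.6, 40.5 and 21.5 with Ezh2. Spi1 was in this way open at some elements and without peaks at others within 1 gene in the mutant lists.

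Trem2 and Tyrobp act as a pair, Trem2 as a receptor for lipids and Tyrobp (DAP12) as its signalling adaptor. Of the 6 regions of Trem2 (chromosome 17, 48346401 to 48352276, plus strand), 4, 3 and 5 had a peak with GFP, 5, 5 and 4 with Ezh2, and 3 in each Ezh2-Y726D list. The gene-end region at 48347136 to 48347648 was at 49.1 in GFP replicate 1 and 58.7 in replicate 3, with no peak in replicate 2, at 49.2, 51.5 and 54.5 with Ezh2, and without a peak in the mutant. The start site itself had a peak in Ezh2 replicate 1 alone (48346259 to 48346534, percentile 44.4). The strongest Trem2 region, at 48336823 to 48337448, was shared, with 83.6, 92.3 and 87.5 with GFP, 91.9, 84.5 and 75.7 with Ezh2, and 92.6 and 78.6 in the mutant. Another shared region, at 48355733 to 48356362, was higher with Ezh2, at 74.5, 67.9 and 86.1, than with GFP, at 38.9, 15.0 and 39.4, or in Ezh2-Y726D, at 37.0 and 42.8. In that last region the Ezh2 libraries stood above all others, while GFP and the mutant overlapped.

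Tyrobp had 7 regions (chromosome 7, 30413782 to 30417582), with a peak at 4 in each GFP list, at 6, 7 and 5 in the Ezh2 lists and at 3 in each Ezh2-Y726D list. The region at its gene end (30412497 to 30414091) was at 40.5, 62.6 and 42.0 with GFP and 45.7, 34.7 and 55.7 with Ezh2, with no mutant peak. A broad region at the edge of the window (30392230 to 30395126) was at 88.0, 87.9 and 84.7 with GFP, 77.7, 85.5 and 87.7 with Ezh2, and 39.8 and 46.1 in the mutant, so it was still called but ranked far lower. The ends of neighbouring genes behaved otherwise. At Nfkbid, an inhibitor of NF-kappaB (30421304 to 30423636), Ezh2-Y726D was highest, at 84.9 and 83.0, against 73.3, 69.0 and 69.0 with GFP and 51.4, 53.6 and 51.7 with Ezh2. At Hcst, which encodes DAP10, a sister adaptor of Tyrobp (30419551 to 30420031), the Ezh2 lists alone had peaks, at 2.1, 0.6 and 4.1.

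Aif1, the actin-binding protein stained as Iba1, was the member without a gene-end peak in any list (chromosome 17, 35170986 to 35176083, minus strand). Of the 9 regions in its window, 5, 5 and 6 had a peak with GFP, 8, 6 and 7 with Ezh2, and 4 and 5 in the mutant. Its main intragenic region (35172495 to 35173937) was at 46.7, 17.3 and 38.1 with GFP and 58.9, 53.8 and 53.0 with Ezh2, which did not overlap, and had no mutant peak. The strongest region beside it, at 35178363 to 35179077, was shared, with 89.0, 89.6 and 92.7 with GFP, 72.6, 76.3 and 87.6 with Ezh2, and 82.6 and 87.5 in the mutant. Much of the window belongs to other genes of the major histocompatibility region. The end of Ltb, a lymphotoxin gene of lymphocytes (35194139 to 35196209), was highest in the mutant, at 91.2 and 91.8, against 63.2, 74.3 and 60.6 with GFP and 51.0, 40.8 and 48.3 with Ezh2.

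At gene ends the mutant again stood below the other groups, while GFP and Ezh2 overlapped. A peak within 1 kb of a gene end was found for 7, 4 and 7 of the 9 genes with GFP, 7 in each Ezh2 list and 2 in each Ezh2-Y726D list, where P2ry12 and Spi1 carried it. At Spi1 the mutant peak lay at the end with the higher coordinate, and the other end had none. No strand was given for Spi1, so neither end is named as its start. Cx3cr1 and Tyrobp had a gene-end peak in all GFP lists and no mutant list, which is 2 of 9 members, against 1.28% of 21896 protein-coding genes. GFP replicate 2 had the fewest gene-end peaks and also the shortest list. Positions are given as counts only, with no test. Of the 10 regions at ends of other protein-coding genes, 6 had an Ezh2-Y726D peak, 4 had none and 0 were lost relative to GFP. Among the 13 regions at member gene ends 2 had a mutant peak and 3 were lost. Among the 26 inside the genes the numbers were 9 and 6, and among the remaining 43 they were 17 and 8. Over all regions 4.72% were lost, and 0 of 10 cannot be told apart from that share. The shares with a peak, leaving out the regions at other genes' ends, were 59.8, 54.9 and 65.9% with GFP, 75.6, 75.6 and 78.0% with Ezh2, and 29.3 and 32.9% in the mutant.

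Regions that all 8 lists shared were ranked in a single limma fit over 69493 regions, on normal scores of the fold rank, with Benjamini-Hochberg adjusted p of 0.05 as the threshold. The windows held 23 of these, 25.0% of their regions against 36.6% of all regions. Ezh2-Y726D against GFP gave 3 member regions ranked higher (3.55% of all regions) and 2 ranked lower (4.65%). Higher were the Ltb end and Spi1 regions at 91078005 to 91079210 and 91101102 to 91101948; lower were the broad region near Tyrobp and the intragenic Cx3cr1 region at 120054597 to 120055561, which was at 73.7, 60.8 and 78.6 with GFP, 65.3, 60.4 and 77.1 with Ezh2, and 15.6 and 51.4 in the mutant. Ezh2 against GFP gave 1 higher (1.59%), the far Trem2 region, and 1 lower (2.84%), the Spi1 region at 91084190 to 91084854. Ezh2 against Ezh2-Y726D gave 4 higher (7.0%) and 7 lower (6.96%). The median fitted difference of the 23 regions was 0.16 normal score units for Ezh2-Y726D minus GFP, -0.15 for Ezh2 minus GFP and -0.24 for Ezh2 minus Ezh2-Y726D, and the median of all regions was -0.01, 0.01 and 0.02. Regions without a mutant peak cannot enter this fit, and the same lists chose the genes, so these values are a description of the shared regions only. Region counts by this route changed with the library left out: without Ezh2-Y726D replicate 1 no member region ranked higher against GFP, and without replicate 2 a single one did. Ranked by −log10 p in place of fold, no member region ranked higher with the mutant against GFP or lower with Ezh2 in either of its comparisons.

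Other genes of the same cells and pathways were counted from lists chosen with earlier results known. Other microglia identity genes (12) had a gene-end peak in 8, 9 and 9 cases with GFP, 10, 9 and 9 with Ezh2, and 5 and 6 in the mutant. Mertk, a phagocytic receptor, was at 86.2 to 92.4 in every library. Siglech, Slc2a5, Selplg and Ctss had peaks in some GFP or Ezh2 list and none in the mutant. Myeloid transcription factors (8) had 7 in each GFP and Ezh2 list and 6 and 7 in the mutant, among them Irf8, at 90.2, 88.5 and 86.0 with GFP, 82.8, 84.8 and 84.2 with Ezh2, and 91.3 and 95.4 in the mutant. Cebpa and Cebpb had peaks in all 8 lists.

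Genes listed for signalling around Trem2 and Tyrobp (9), which include other adaptors and receptors, had a gene-end peak in 7, 6 and 7 cases with GFP. The count was 8 in each Ezh2 list and 5 in each mutant list. The kinases Btk and Lyn, the phospholipase Plcg2 and the phosphatase Inpp5d were present in all 8 lists, and Btk lay at 97.3 to 99.4. Vav1, Hcst and Fcer1g, the last an adaptor of Fc receptors, had no mutant peak. The ligands Csf1, Il34 and Cx3cl1, which other retinal cells make, had peaks in both mutant lists. Il34 was absent, 9.25 and 8.71 with GFP, 33.5, 55.5 and 36.1 with Ezh2, and 6.94 and 13.6 in the mutant, so its Ezh2 libraries stood above the others.

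Genes of activated microglia (10) had a gene-end peak in 9, 8 and 10 cases with GFP, 10, 10 and 9 with Ezh2, and 7 and 6 in the mutant. Cst7, a cysteine protease inhibitor of disease-associated microglia, was at 70.1, 83.8 and 83.3 with GFP, 90.4, 88.9 and 91.6 with Ezh2, and 4.63 in Ezh2-Y726D replicate 1 with no peak in replicate 2. Axl, a receptor kinase also used outside microglia, was at 76.6 to 89.4 in all 8 libraries. Itgax, Clec7a and Cd68 had no mutant peak. Genes of other myeloid cells (12) were seldom open in any group, with 3, 2 and 3 with GFP, 4, 2 and 5 with Ezh2 and 2 in each mutant list, and S100a9, Mrc1, Cd163, Cd209a, Mpo and Cxcr2 had no gene-end peak in any of the 8. Endothelial genes (12) had 6 in each library except Ezh2 replicate 3, which had 7. Relative to GFP, the mutant lost the gene-end peak of 5 of 12 T cell genes and 2 of the 9 members. It lost 1 of 12 other identity genes, 1 of 9 signalling genes and 1 of 10 activated genes. None was lost from the RGC, Müller glia, endothelial, other myeloid, transcription factor and ligand lists, of 3 to 12 genes. Over 21896 protein-coding genes 1.28% were lost. A count of 0 or 1 in lists this short cannot be told apart from that share.

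**Figure D4:**
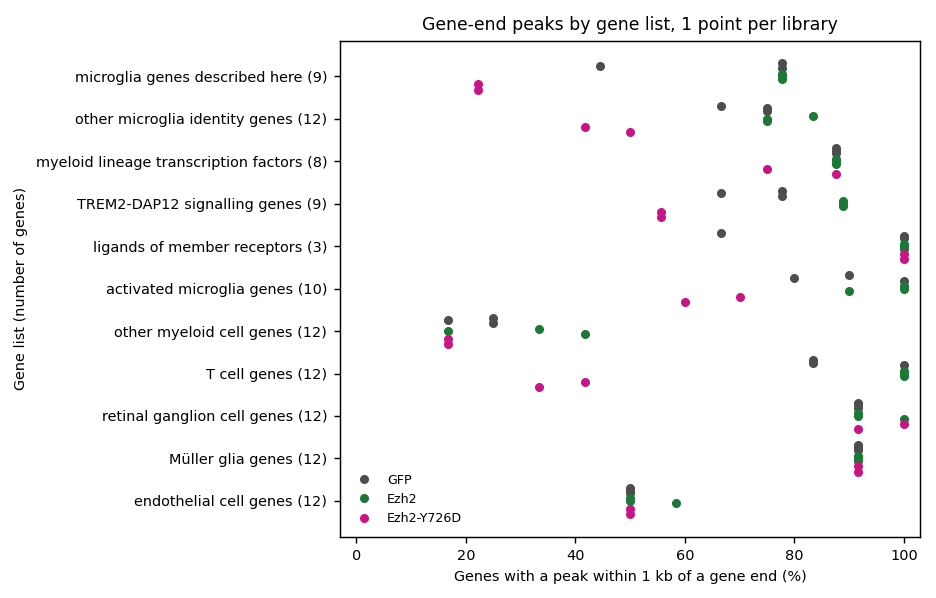
Percent of the genes of each list with a peak within 1 kb of a gene end, with 1 point per library and the number of genes in brackets. The Ezh2-Y726D points lie left of the other groups for the described microglia genes (22.2%) and the T cell genes (5 and 4 of 12), and on or beside them for RGC, Müller glia and endothelial genes.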

How the data were processed

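ATAC-seq peaks of 8 libraries (GFP 3, Ezh2 3, Ezh2-Y726D 2) were analysed as deposited, called by the authors per library on GRCm38. Per the labels, the tools were cutadapt, Bowtie2, SAMtools, Picard, MACS2 and deepTools; settings were not given in the sources used here, and read depth is unknown. The deposited lists give a score, a fold (ratio of pileup to local background), and −log10 p and −log10 q for each peak; a summit offset was not used. No value is scaled between libraries, so only presence and within-list percentile of fold were compared.

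Peaks sharing at least 1 base were merged into regions with Python 3.11.15 and pandas 2.3.3. Genes came from a RefSeq table (GRCm38.p6; 21896 protein-coding genes), which gives no strand, so a gene end is either end within 1 kb; the promoter table gave strand for 5 members. Ranks were tested with limma 3.58.1 in R 4.3.3, 1 fit over all 8 libraries, Benjamini-Hochberg adjusted. On simulated data for Ezh2-Y726D against GFP (69493 regions, 200 changed), shifts of 2 and 1 normal score units were recovered at 93% and 26%, with 5 unchanged regions called. All 200 were shifted down, whereas the data gave 2469 regions ranked higher and 3233 ranked lower. The recovered shares therefore need not hold for the fit to the data. P-values measure the spread between these libraries, which may be technical.

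The members and gene lists were chosen with earlier results of these data known. Named were all members, their gene-end regions and up to 3 further regions per gene with the highest mean percentile, up to 4 genes per list with the highest GFP percentile, and the 10 genes most like the members' mean profile. Further regions and list genes, those without mutant peaks among them, were named after their values were seen; some genes the rule names are not reported here. Alternatives were peak strength, list length, overlap, window, rank measure, number of lists, replicate block and leaving out each library. Peak names number the Ezh2-Y726D libraries 2 and 3 where the titles say 1 and 2; titles were used.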

Additional observations from a re-analysis of the deposited data

How the results depend on the processing

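Of 174 values of 18 results under an alternative, 42 moved beyond their limit, and the cause was not tested. A change of direction could be labelled only for differences in share and in genes, where 0 were found. Counts could not be so labelled, and the balance of ranked calls did change. In the main fit Ezh2-Y726D against GFP gave 3 higher and 2 lower, and Ezh2 against Ezh2-Y726D 4 and 7. Ranked by −log10 p these were 0 and 2, and 4 and 0. With regions in at least 5 lists they were 4 and 17, and 24 and 10. Only peaks with −log10 q of at least 5 gave 0 regions lost with Ezh2 and 11 with Ezh2-Y726D against GFP, a share difference of -20.3 points for Ezh2-Y726D minus GFP and 38.4 for Ezh2 minus Ezh2-Y726D, and 4.67 genes for the latter. Lists of equal length gave 1 region lost with Ezh2, 39.1 points and 4.67 genes. Peaks covering at least 0.5 of a region gave 2 gained and 7 lost with Ezh2-Y726D against GFP. A window of 5 kb, with 51 regions and so fewer to count, gave 3 gained and 1 lost for Ezh2 against GFP, 0 gained and 11 lost for Ezh2-Y726D against GFP, 20 gained and 2 lost for Ezh2 against Ezh2-Y726D, and 47.1 points. Ranked by −log10 p, 0 regions were lower for Ezh2 against GFP, 0 higher for Ezh2-Y726D against GFP and 0 lower for Ezh2 against Ezh2-Y726D. With regions in at least 5 lists, where absent peaks take the lowest rank, 55 member regions of 109942 entered: 3 higher and 3 lower for Ezh2 against GFP (4612 and 6092 of all), 4 higher and 17 lower for Ezh2-Y726D against GFP (5268 and 9018), and 24 higher and 10 lower for Ezh2 against Ezh2-Y726D (12686 and 10810). Without single libraries, regions lost with Ezh2-Y726D against GFP ranged from 17 to 26 (26 without GFP replicate 2) and gained from 1 to 2 (2 without GFP replicate 3 or either Ezh2-Y726D replicate). For gained and lost regions the share of all regions is given in the main setting only. Their counts under an alternative therefore cannot be set against a background. Ranked regions ranged from 0 to 1 (lower, Ezh2 against GFP; 0 without GFP replicate 1 or 3 or any Ezh2 replicate), 0 to 3 (higher, Ezh2-Y726D against GFP; 0 without Ezh2-Y726D replicate 1, 1 without replicate 2), 1 to 2 (lower, the same; 1 without GFP replicate 1 or 3 or Ezh2-Y726D replicate 1) and 2 to 3 (higher, Ezh2 against Ezh2-Y726D, 2 without Ezh2 replicate 1 or either Ezh2-Y726D replicate). The labels do not say that replicate numbers mark shared animals, and deviations of same-numbered libraries correlated at -0.015 to 0.048, so the libraries were not paired; with a replicate block 1 region ranked lower with Ezh2-Y726D against GFP in place of 2. Start sites of the promoter table, regions away from other genes' ends and a block by peak-name number were added after seeing the data. Depth is unknown, so an absent peak is not absent accessibility.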

Other observations

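The windows also held genes of other immune functions. Itgax, the CD11c integrin chain of dendritic cells and activated microglia, had 5, 5 and 7 window peaks with GFP, 7, 9 and 9 with Ezh2 and 0 in both Ezh2-Y726D libraries. P2ry13, a purinergic receptor beside P2ry12, kept a gene-end peak in all 8 libraries, at 54.9, 44.1 and 54.0 with GFP, 55.9, 34.3 and 27.9 with Ezh2, and 75.0 and 66.2 in the mutant. The region at the end of Lst1, a leukocyte gene near Aif1, was at 59.7, 53.6 and 53.1 with GFP, 67.7, 64.6 and 47.9 with Ezh2, and 30.3 and 58.7 in the mutant, where the groups overlapped.

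The ratio of mean window peaks, Ezh2-Y726D to GFP, had a median of 0.971 over 9749 protein-coding genes with at least 5 peaks in every GFP list, with a 5th percentile of 0.621. Among the members it was 0.00 at Itgam, 0.40 at Tmem119, 0.429 at Cx3cr1, 0.553 at Tyrobp and 0.652 at Spi1, and 0.75 to 0.923 at the other 4. The ratio of Ezh2 to GFP was 1.05 over all those genes and 1.04 to 1.54 over the members. Trem2, Csf1r and Tmem119 have fewer than 5 peaks in some GFP list and are not among the 9749.

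The 10 genes whose gene-end percentiles over the 8 libraries lay nearest the mean profile of the members were Myt1l, Chrnb4, Tnfrsf12a, Esam, Srrm2, Fxyd1, Tox, Reln, Gm30599 and Mtss2. Their mean absolute difference from that profile ran from 2.49 percentile points at Myt1l to 6.25 at Mtss2. The members' mean profile, counting a gene without a peak as 0, was 35.6, 25.2 and 43.2 with GFP, 43.0, 39.4 and 50.4 with Ezh2, and 17.9 and 17.5 in the mutant. The mutant means rested on P2ry12 and Spi1, since the other 7 members had no gene-end peak there. All 10 genes named had a peak in both mutant lists, so they resemble the mean and not those 7 members.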
